A study of Mus musculus with 3 samples.

Results

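The forkhead (Fox) genes encode transcription factors that share a DNA-binding forkhead domain. Here 38 autosomal forkhead genes were followed in a list of Isl1 ChIP-Seq peaks, in which 30 of them had at least 1 assigned peak and 8 had none. After removal of identical repeated lines, 46 of the 14082 distinct peaks carried the symbol of a forkhead gene.

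The peaks come from cardiac progenitor cells (CPCs) made from the mouse embryonic stem cell (ESC) line E14 Tg(Nkx2-5-EmGFP), which carries a green fluorescent reporter for the cardiac gene Nkx2-5, and harvested at day 5 of directed cardiac differentiation. There were 2 Isl1 ChIP samples and 1 input sample without antibody, all from the same line and day and with no treated or mutant group. Isl1 is a LIM-homeodomain factor of the second heart field, the progenitor pool that adds cells to the growing heart tube. The study asked which genes are bound by Isl1 in ESC-derived CPCs. The samples were given replicate numbers only, with no word on separate cultures. The single list holds the peaks kept by the authors as common to both replicates, with a position, a signed distance to the closest transcription start site (TSS) and a gene symbol for each. It gives no peak height and no value per sample, so a peak has no replicate error and its depth is unknown, and these samples hold no RNA values by which the cell identity could be checked. All positions are on mm9.

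Forkhead factors bind DNA through a winged-helix fold whose recognition helix lies in the major groove. FoxA factors are the textbook pioneer factors, which bind sites in closed chromatin, and other members direct mesoderm, vessels, neural crest, metabolism and the cell cycle. In heart development, Foxc1, Foxc2 and Foxf1 act in the second heart field and its mesoderm, Foxh1 relays Nodal signals, and FoxO and FoxP factors restrain or tune cardiomyocyte growth.

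To show which part of the forkhead genes the peaks cover, a short string of the coding sequence was followed. CGNCACAACCT, in which N is any base, was read in frame in the coding sequence of 23 of 37 members with a coding model and covers codons of the recognition helix. It lay inside an Isl1 peak in 13 of these members and outside every peak in the other 10. Searched on both strands, it was present in 14 of the 46 forkhead peaks (30.4%), each at a different gene, the additional gene being Foxl1, against 23 of all 14082 distinct peaks (0.163%). The string was looked for because these are forkhead genes, so its presence in their coding exons is no finding, and what the peaks add is that they extend over it. It lay 48 to 619 bp from the peak midpoint (median 122 bp over the 13 members). In the alignment of 8 of these members, shown because they print the same codons from 8 separate peaks, the 11 bases of the string are in capitals and each line is the coding strand. Their positions are chr19:16947928-16947987 for Foxb2 (- strand), chr13:31899415-31899474 for Foxc1 (+ strand), chr13:99125069-99125128 for Foxd1 (+ strand), chr4:114580876-114580935 for Foxd2 (- strand), chr4:99323813-99323872 for Foxd3 (+ strand), chr4:114598263-114598322 for Foxe3 (- strand), chr13:31718353-31718412 for Foxf2 (+ strand) and chr9:98856334-98856393 for Foxl2 (+ strand).
Foxb2: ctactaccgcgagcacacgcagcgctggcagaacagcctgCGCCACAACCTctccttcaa
Foxc1: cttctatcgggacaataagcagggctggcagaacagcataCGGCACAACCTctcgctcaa
Foxd1: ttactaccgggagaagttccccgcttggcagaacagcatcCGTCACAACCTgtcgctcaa
Foxd2: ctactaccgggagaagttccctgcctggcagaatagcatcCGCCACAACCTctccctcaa
Foxd3: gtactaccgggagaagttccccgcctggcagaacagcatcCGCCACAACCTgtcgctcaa
Foxe3: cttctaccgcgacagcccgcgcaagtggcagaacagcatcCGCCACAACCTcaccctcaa
Foxf2: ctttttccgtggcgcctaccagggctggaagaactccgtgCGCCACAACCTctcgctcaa
Foxl2: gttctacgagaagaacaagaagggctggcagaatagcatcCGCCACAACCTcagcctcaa

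Over these 60 bases, 25 positions were identical in all 8 members, and the 28 pairs shared 61.7 to 95% of bases (median 73.3%). The closest were the FoxD paralogs, with 95% between Foxd1 and Foxd3, 91.7% between Foxd2 and Foxd3 and 88.3% between Foxd1 and Foxd2. The words of 31 bases in the central 200 bp of the peaks within 1 kb of a forkhead TSS had a median of 1 copy in the genome. Only 3 forkhead peak centres held the string. The count therefore describes the centres and does not show whether the shared domain can be told apart between paralogs.

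Of the 38 forkhead genes, 30 (78.9%, 95% Wilson interval 63.7 to 88.9) had an assigned peak, against 39.1% of 21031 protein-coding genes. A peak within 1 kb of the TSS was assigned to 26 members (68.4%, interval 52.5 to 80.9), against 24.2% of all protein-coding genes. At least 2 peaks were assigned to 11 members (28.9%), against 11.1%. A peak at single-copy sequence, defined as a median of under 2 genome copies for the words of 31 bases in the central 200 bp, was assigned to 27 members (71.1%), against 28.7%. The members were chosen with results of these data known, so these shares are a description and were not tested, and the intervals cover counting error only.

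The neighbouring transcription factor families were counted in the same way. An assigned peak was found for 9 of 15 T-box genes (60%), 11 of 18 Sox genes (61.1%) and 8 of 14 Nkx genes (57.1%), with intervals that overlap that of the forkhead genes. Within 1 kb of the TSS the counts were 6 of 15 (40%), 7 of 18 (38.9%) and 6 of 14 (42.9%). The difference between families was not tested.

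**Figure D1:**
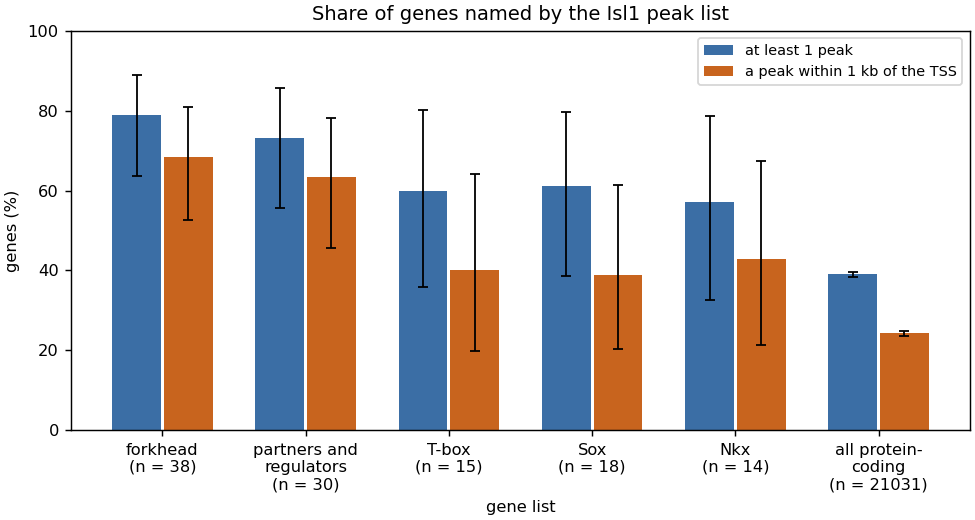
Percent of genes with at least 1 assigned Isl1 peak (blue) and with a peak within 1 kb of the TSS (orange) for each gene list, with 95% Wilson intervals as error bars and the number of genes under each name. The forkhead genes stand at 78.9% and 68.4%, and all protein-coding genes at 39.1% and 24.2%.

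Among the genes of mesoderm, heart field and vessel, 6 of 8 had a peak, all within 1 kb of the TSS and none of the 9 peaks multi-copy. Foxc1, needed for the outflow tract and the arch arteries, had peaks of 1350 and 1301 bp with midpoints 153 and 1564 bp downstream of its TSS. Foxc2, its partner in vessels and lymphatics, had a single peak of 2240 bp at 913 bp, which covered its whole coding sequence. Foxf1, a factor of splanchnic mesoderm and lung vessels, had the widest forkhead peak, 2697 bp, with its midpoint 279 bp upstream. Foxf2, which acts in pericytes and palate mesenchyme, had a peak of 1892 bp at 591 bp. Foxl1, a gene of gut mesenchyme, had a peak of 1291 bp at 735 bp and a narrower one of 552 bp at 191277 bp. Foxq1, known from stomach and hair but counted in this group, had peaks of 755 and 1715 bp at -3 and 1400 bp. The assigned peaks of this group lay at the gene, with the far Foxl1 peak as the exception. Distal peaks named for a neighbouring gene, such as those of Fendrr described below, are not part of this count.

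The members of this group without an assigned peak were Foxh1, the Smad partner of Nodal signalling, and Foxs1, a gene of perivascular cells. The nearest peak to Foxh1 lay 13175 bp from its TSS and was named for Cyhr1. For Foxs1 the nearest peaks lay 10014 and 18156 bp away and were named for Dusp15. The assignment takes the closest TSS, so a peak in a neighbouring gene is not counted for the member.

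All of these genes except Foxh1 and Foxs1 lie in 2 clusters of 3. On chromosome 8 the TSSs of Foxf1, Foxc2 and Foxl1 span 43554 bp, and each gene had a peak within 1 kb of its start. The 2697 bp peak of Foxf1 also held the start of Fendrr, the long noncoding RNA transcribed away from Foxf1, 1354 bp from the Foxf1 TSS. A further 2 peaks named for Fendrr lay 40763 and 48192 bp before the Foxf1 TSS. The former was single-copy, while the centre of the latter had a median of 248 genome copies. On chromosome 13 the TSSs of Foxq1, Foxf2 and Foxc1 span 248476 bp. All 5 peaks of that cluster lay at the 3 genes, and none lay between them.

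**Figure D2:**
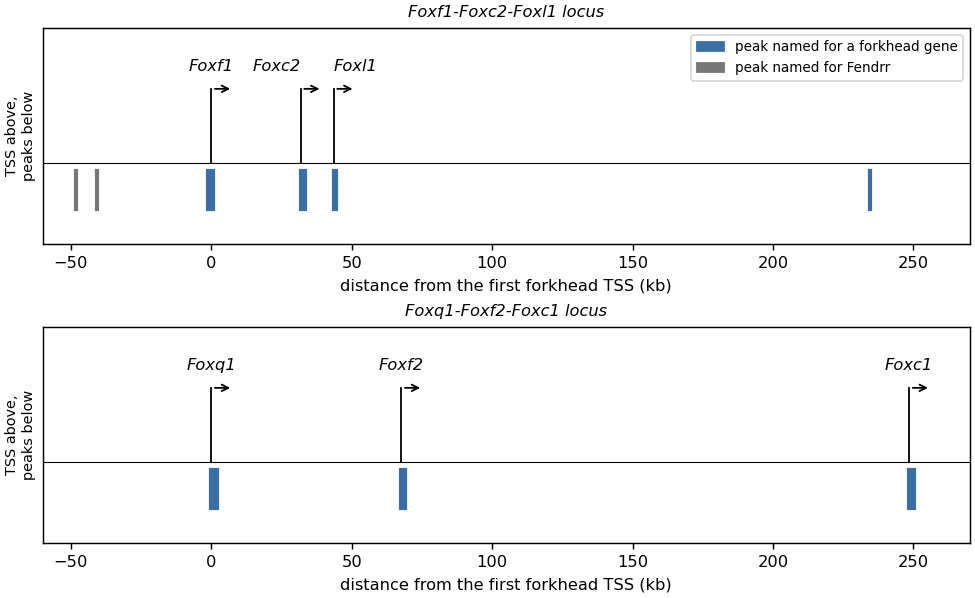
Peaks (bars below the line) and forkhead TSSs (arrows above it, pointing along transcription) in kb from the first TSS of each cluster; bars carry an outline and look wider than the peaks. In the chromosome 8 cluster a peak stands at each of the 3 TSSs, 2 peaks named for Fendrr precede Foxf1 and 1 peak named for Foxl1 is drawn far downstream. A further peak of the list, 19636 bp from that far peak, carries no forkhead name and is not drawn. In the chromosome 13 cluster every peak drawn stands at a gene.

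All 3 FoxA genes, the pioneer factors of endoderm and liver, had an assigned peak, and 2 of them had it within 1 kb of the TSS. Over all protein-coding genes the shares were 39.1% and 24.2%. Foxa1 had a peak of 1248 bp at 266 bp and Foxa2 a peak of 677 bp at -331 bp. Each had a second, distal peak, at 11268 and 101547 bp. Foxa3 had a single peak of 762 bp in an intron at 4299 bp, whose central words had a median of 563 genome copies. The distal Foxa2 peak had 7.5 copies by the same words, but 1 copy by words of 75 bases and 1 over the whole peak.

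In the neural, crest and placode group, 7 of 11 genes had a peak, each with a peak within 1 kb of the TSS (39.1% and 24.2% of all protein-coding genes). Foxd3, the neural crest and pluripotency factor, had 4 peaks, of which those at 135 and 1396 bp were single-copy and those at -23839 and -222484 bp multi-copy. Foxd2 had a peak of 2499 bp at 494 bp that also held the start of the antisense transcript Foxd2os, and Foxe3, the lens factor, had a peak of 1447 bp at 439 bp. These genes are neighbours on chromosome 4, and their peaks were separated by 15197 bp. Foxd1 had a peak of 2055 bp at 965 bp and a multi-copy peak at 31428 bp. Foxe1, a thyroid and palate factor, had a peak of 2273 bp at 266 bp, Foxb2 a peak of 1186 bp at 925 bp and Foxi2 a peak of 599 bp at 254 bp. Foxb1, Foxd4, Foxi1 and Foxi3 had none, and of these Foxd4 alone had another gene's peak within 50 kb, 39554 bp away and named for Pgm5.

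Among the genes of cilia, thymus and ovary, Foxl2, the ovarian factor, had a peak of 2476 bp at 279 bp that also held the start of Foxl2os. Foxn4, a factor of retinal and spinal interneurons but counted in this group, had a peak of 1307 bp at -309 bp. Foxn1, the thymic epithelial factor, had an intronic peak of 318 bp at 2240 bp with 14 genome copies, the narrowest forkhead peak. Foxj1, the regulator of motile cilia, had none, and no peak lay within 50 kb of its TSS.

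The 9 broadly expressed members all had an assigned peak, and 8 had it within 1 kb of the TSS (39.1% and 24.2% of all protein-coding genes). Foxm1, which drives mitotic genes, had a peak of 1089 bp at -28 bp that also held the starts of Rhno1, a gene read from the opposite strand 56 to 155 bp away. Foxo1, the target of insulin and Akt signalling, had peaks of 2064 and 621 bp at 279 and 1670 bp. Foxo3, its relative in stress response, had peaks of 1132 and 1654 bp at -84 and 1379 bp and a small one of 324 bp at -23045 bp. The remaining members with a peak near the TSS were Foxj2 (-145 bp), Foxj3 (191 bp), Foxk1 (306 bp), Foxk2 (93 bp) and Foxn2 (319 bp). Foxk1 was also the name given to a peak 542105 bp upstream, which lay in an intron of Sdk1. Its central words of 31 bases had a median of 950.5 genome copies, but it had 1 copy by words of 75 bases and 1 over the whole peak. Foxn3, a checkpoint repressor, had a single peak 57122 bp downstream of the deposited TSS, but only 845 bp from another coding start of Foxn3 in the GENCODE annotation. Its peak of 1290 bp was single-copy, with a centre of 83.5% G and C.

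Of the FoxP genes, Foxp4, a factor of foregut and heart, had 4 peaks, in pairs at the TSS (382 and -551 bp) and near 50 kb upstream (-49679 and -50846 bp), all single-copy. Foxp2, known from speech circuits and lung, had a single intronic peak at 65284 bp with 414.5 genome copies. Foxp1, which acts in cardiac valves and in proliferation of the myocardium, had none, and no peak lay within 50 kb of its TSS. Foxb1, Foxi1 and Foxi3 likewise had no peak of any gene within that distance.

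The list of forkhead partners and regulators was counted beside them. Of 30 such genes, 22 had an assigned peak (73.3%, against 39.1% of all protein-coding genes). Within 1 kb of the TSS, 19 had a peak (63.3%, against 24.2%). Among protein-coding genes with a ratio of observed to expected CG dinucleotides of at least 0.6 at the start, the shares were 54.3% and 43.8%. The difference was not tested. Smad2, Smad3 and Smad4, which pair with Foxh1, had peaks at 181, 198 and 143 bp from the TSS. Of the kinases upstream of FoxO, Akt1, Akt2, Pdpk1 and Sgk3 had peaks within 1 kb, while Sgk1 had a single peak at 78451 bp and Pik3ca had none. The deacetylase Sirt1 had a peak at 220 bp. The corepressors Tle1, Tle3, Tle4, Ctbp1, Ctbp2, Hdac2 and Gatad2a, the coactivators Ep300 and Crebbp, and Ctnnb1 also had a peak within 1 kb. Of the cell cycle genes, Cdk1 had peaks from 46166 bp, whereas Ccnb1, Plk1 and Skp2 had none, as did Nodal, Tle2, Gatad2b and Hdac1.

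The 46 peaks were next described by position and width. The midpoint lay within 1 kb of the TSS for 27 (58.7%, interval 44.3 to 71.7; 38.5% of all distinct peaks), at 1 to 10 kb for 7 and beyond 10 kb for 12. The peak overlapped the deposited TSS in 24 cases. Of the 27 close peaks, 8 had the midpoint upstream (29.6%, against 19% of all peaks within 1 kb). By the GENCODE annotation, 15 midpoints fell in a coding exon, 7 in a UTR, 1 in a noncoding exon, 9 in an intron and 14 between genes. These places and the overlaps with the TSS were counted for the forkhead peaks alone, with no share over all distinct peaks. The median width was 1185 bp (range 318 to 2697) against 947 bp for all peaks, and within 1 kb of the TSS it was 1350 bp against 1050 bp. Widths of at least 2000 bp were reached by 7 forkhead peaks, at Foxf1, Foxd2, Foxl2, Foxe1, Foxc2, Foxo1 and Foxd1 (15.2%, against 3.09% of all distinct peaks).

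**Figure D3:**
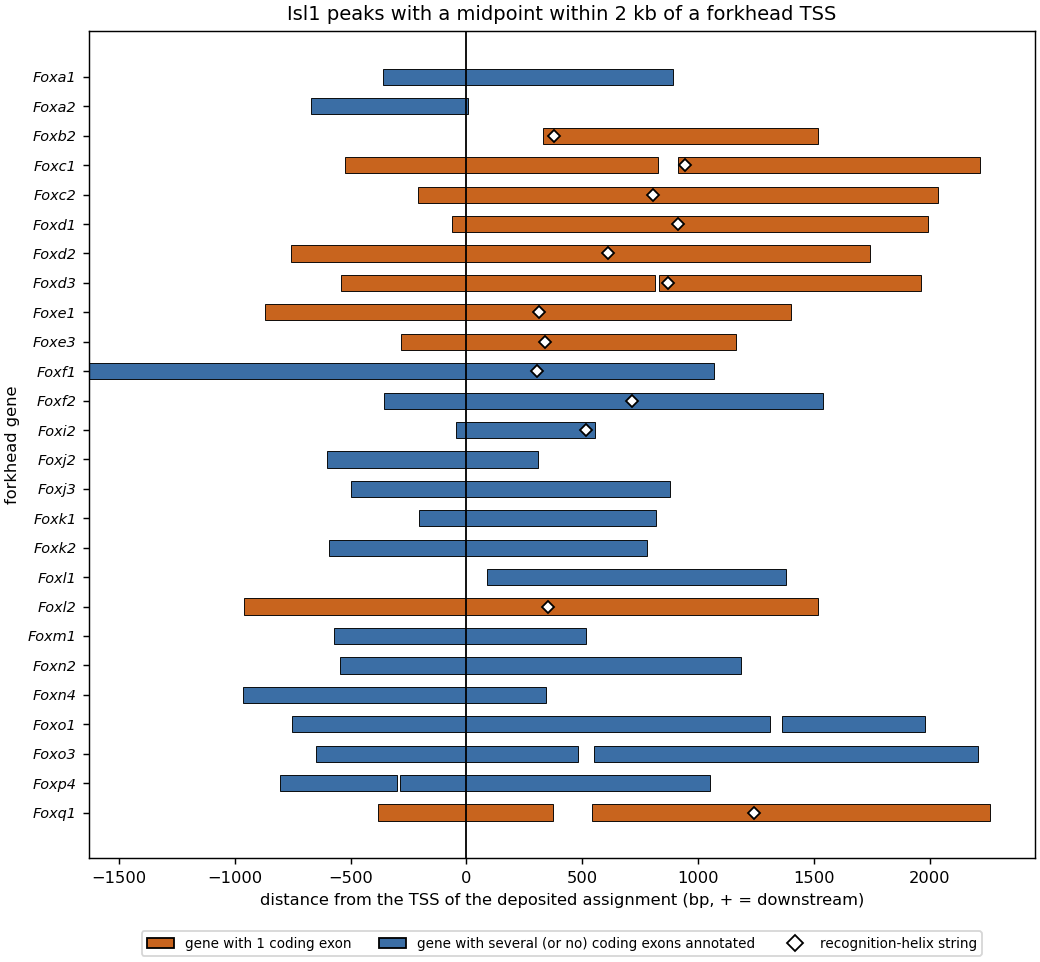
Extent of each Isl1 peak with its midpoint within 2 kb of a forkhead TSS, drawn to scale in bp from the TSS of the deposited assignment; orange bars are genes with 1 coding exon, blue bars all others, and diamonds mark the recognition-helix string. Foxb2 and Foxl1 are the genes whose peaks start downstream of the TSS, and pairs of bars separated by a narrow gap stand at Foxc1, Foxd3, Foxo1, Foxo3, Foxp4 and Foxq1.

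Many forkhead genes have a single coding exon, which makes it possible to ask how much of the coding sequence the peaks reach. Coding bases inside any peak of the list were counted. This includes second peaks with midpoints beyond 1 kb, such as those at Foxc1, Foxd3 and Foxq1. Of 13 members with 1 coding exon, 10 had a peak, all within 1 kb of the TSS (76.9%, against 10.1% of 2918 protein-coding genes with 1 coding exon). Of 24 members with several coding exons, 15 had a peak within 1 kb (62.5%, against 27.4% of 17286). In all 10 members of the former class at least 50% of the coding sequence lay inside Isl1 peaks, with a median of 100%. Among all 294 genes with 1 coding exon and a peak within 1 kb, 52.7% reached that share and the median was 64.9%. Coverage was 100% for Foxc2, Foxd1, Foxd2, Foxe1, Foxe3, Foxl2 and Foxq1, 98.6% for Foxd3, 94.5% for Foxc1 and 88.9% for Foxb2. With several coding exons, 3 of 15 members reached 50%, namely Foxf2 (88%), Foxf1 (86.1%) and Foxi2 (54.4%), against 5.43% of all such genes, and the median was 16.3% against 4.35%. Close peaks were wide in the single-exon members, at 1751 bp in the median, where those of all genes with 1 coding exon reached 1173.5 bp. This split was made after the peaks had been seen and was not tested.

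**Figure D4:**
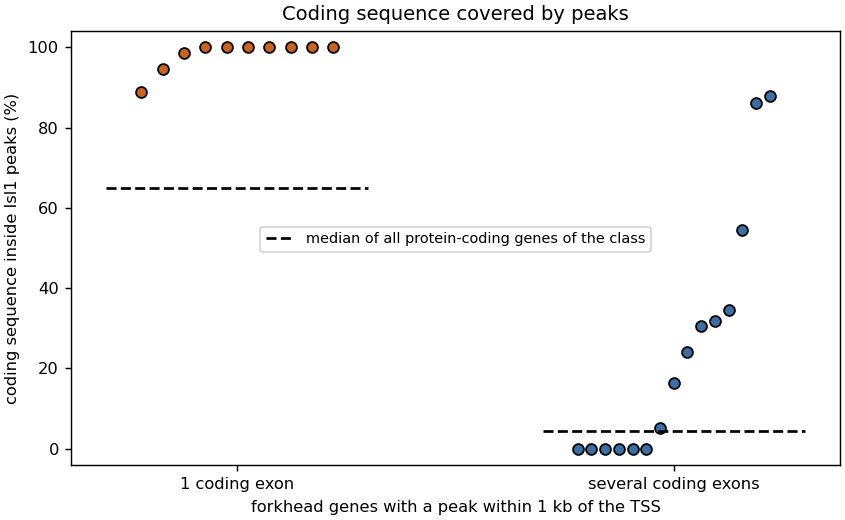
Percent of the coding sequence that lies inside Isl1 peaks for each forkhead gene with a peak within 1 kb of its TSS (points, spread sideways in order of value), by number of coding exons. All 10 genes with 1 coding exon lie at 88.9% or more, and the dashed lines mark the medians of all protein-coding genes of each class, 64.9% and 4.35%.

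In 6 members, peaks came in close pairs. At least 1 pair of peaks of the same gene with a gap of at most 1 kb was present in 15.8% of the forkhead genes, against 0.927% of all protein-coding genes. Of the 46 forkhead peaks, 14 (30.4%) had the next peak within 1 kb, against 473 of all distinct peaks (3.36%). The 7 gaps measured 11 and 613 bp at Foxp4, 20 bp at Foxd3, 49 bp at Foxo1, 70 bp at Foxo3, 86 bp at Foxc1 and 168 bp at Foxq1, and the outer span of a pair ran from 1722 to 2856 bp. Merging such pairs left 39 forkhead regions. The gaps at Foxc1 and Foxd3 lay inside the coding exon, and the recognition-helix string began 26 and 31 bp past the last base of the gap. G and C made up 46.9% (Foxo1) to 60% (Foxo3) of the gap bases. The mean of the forkhead peaks was 69.3% at the centres, 64.9% over whole peaks and 47.6 and 46.6% in windows 2 kb to either side. The gaps lie between peak edges and are short, so the comparison with the centres is not like for like. The gap sequences of 5 genes are given because they are the bases that part the peaks, in capitals with 20 bases of the flanking peaks to either side, on the + strand of mm9 at chr13:31899324-31899449 (Foxc1), chr4:99323783-99323842 (Foxd3), chr3:52073551-52073639 (Foxo1), chr10:41995977-41996086 (Foxo3) and chr17:48061850-48061900 (Foxp4).
Foxc1 gap: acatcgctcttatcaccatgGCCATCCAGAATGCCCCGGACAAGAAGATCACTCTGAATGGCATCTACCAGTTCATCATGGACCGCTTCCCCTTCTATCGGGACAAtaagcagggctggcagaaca
Foxd3 gap: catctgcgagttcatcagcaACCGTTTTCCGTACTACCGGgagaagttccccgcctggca
Foxo1 gap: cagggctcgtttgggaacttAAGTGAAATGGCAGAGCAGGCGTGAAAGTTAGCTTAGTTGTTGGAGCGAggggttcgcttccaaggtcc
Foxo3 gap: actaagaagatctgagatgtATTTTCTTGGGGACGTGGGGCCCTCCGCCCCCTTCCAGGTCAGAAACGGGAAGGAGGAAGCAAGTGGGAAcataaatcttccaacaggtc
Foxp4 gap: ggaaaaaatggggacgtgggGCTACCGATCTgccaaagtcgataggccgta

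The centres of the forkhead peaks were rich in CG dinucleotides. G and C made up 69.3 ± 8.71% of the central 200 bp (mean and SD over 46 peaks), against 66.6% over all distinct peaks and 47.6 and 46.6% in windows of equal length 2 kb to either side. Within 1 kb of the TSS the forkhead centres had 71.3% and all peaks 73.7%. The ratio of observed to expected CG dinucleotides had a median of 0.921 for forkhead peaks and 0.672 for all peaks, and within 1 kb it was 0.966 against 0.929, so forkhead promoter peaks were close to other promoter peaks in this measure. At the start of the transcript with the longest coding sequence, the ratio over 500 bp to either side had a median of 0.851 in the members with a peak within 1 kb and 0.413 in the members without a peak. Over all protein-coding genes the medians were close to these, at 0.806 and 0.433. Of 26 members with a ratio of at least 0.6, 23 had a peak within 1 kb (88.5%), against 43.8% of 9836 protein-coding genes in that class. Below 0.6 the counts were 2 of 11 members (18.2%, Foxi2 and Foxk2, the latter with a longest transcript that starts upstream of its peak) and 6.97% of 10368 genes. The centres of 3 single-copy peaks are printed with every CG in capitals: the Foxa2 start, the Foxn3 peak at the internal start and the distal Foxp4 peak nearer to the gene. On the + strand they lie at chr2:147871916-147872115 (Foxa2 start), chr12:100631063-100631262 (Foxn3 internal start), chr17:48111161-48111360 (Foxp4 distal).
Foxa2 start: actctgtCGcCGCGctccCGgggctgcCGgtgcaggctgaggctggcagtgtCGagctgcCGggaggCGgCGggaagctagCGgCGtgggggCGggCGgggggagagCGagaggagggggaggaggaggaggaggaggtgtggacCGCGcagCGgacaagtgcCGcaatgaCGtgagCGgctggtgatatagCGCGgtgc
Foxn3 internal start: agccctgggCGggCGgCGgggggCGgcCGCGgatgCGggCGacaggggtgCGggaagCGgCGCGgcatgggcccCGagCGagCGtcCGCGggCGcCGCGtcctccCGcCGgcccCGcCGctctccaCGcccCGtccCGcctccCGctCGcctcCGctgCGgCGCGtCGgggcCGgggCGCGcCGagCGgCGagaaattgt
Foxp4 distal: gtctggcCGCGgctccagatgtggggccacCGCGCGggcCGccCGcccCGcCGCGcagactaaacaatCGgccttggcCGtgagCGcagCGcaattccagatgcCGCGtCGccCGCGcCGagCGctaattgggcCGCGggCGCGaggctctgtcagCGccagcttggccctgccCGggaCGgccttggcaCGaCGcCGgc

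These windows held 22, 40 and 31 CG dinucleotides, and the median of the forkhead peaks within 1 kb was 23.

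By the words of 31 bases in the central 200 bp, 8 of the 46 peaks were multi-copy (17.4%, interval 9.09 to 30.7), against 46.5% of all distinct peaks. With words of 75 bases the count was 4 (8.7%, against 28.4% of all), and with words of 31 bases over the whole peak it was also 4, a measure made for the forkhead peaks alone. By all 3 measures 3 peaks were multi-copy, at Foxp2, at Foxd1 (31428 bp) and at Foxd3 (-222484 bp). None of the 27 peaks within 1 kb was multi-copy by any of the 3 measures, against 2.62% of all peaks at that distance by the words of 31 bases. By the same words the count at 1 to 10 kb was 2 of 7 (28.6%, against 38.4%), and beyond 10 kb it was 6 of 12 (50%, against 81.2% of all peaks at that distance). Foxa3, Foxn1 and Foxp2 were the genes whose only peaks were multi-copy by words of 31 bases, but the Foxn1 peak had 1 copy by both other measures and the Foxa3 peak 1 copy over the whole peak. How well reads can be placed in these peaks depends on read length, and whether the peaks mark their genes was not tested. Windows of 2 of the peaks that were multi-copy by words of 31 bases are shown because they hold few or no CG, unlike the promoters. The class also held centres with more CG, 17 at the far Foxd3 peak and 13 at Foxp2. The windows are printed again with every CG in capitals, on the + strand at chr2:147769554-147769753 (Foxa2 distal) and chr4:99299052-99299251 (Foxd3 distal).
Foxa2 distal: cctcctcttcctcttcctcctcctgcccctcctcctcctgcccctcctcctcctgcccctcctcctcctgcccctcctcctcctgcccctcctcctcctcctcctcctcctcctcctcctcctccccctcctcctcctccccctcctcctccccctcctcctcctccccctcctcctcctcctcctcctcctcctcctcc
Foxd3 distal: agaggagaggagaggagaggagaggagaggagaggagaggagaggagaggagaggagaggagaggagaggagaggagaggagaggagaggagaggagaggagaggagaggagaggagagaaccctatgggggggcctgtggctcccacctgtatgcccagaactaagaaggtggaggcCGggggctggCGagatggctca

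The Foxa2 distal window is 97.5% C and T. The Foxd3 window repeats a unit of 5 bases before it turns into other sequence. Its words of 31 bases had a median of 33976 genome copies, but the peak had 1 copy by words of 75 bases and 16 over the whole peak. At least 90% of the centre was purine or pyrimidine in 3 forkhead peaks (6.52%), against 11.2% of all distinct peaks.

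**Figure D5:**
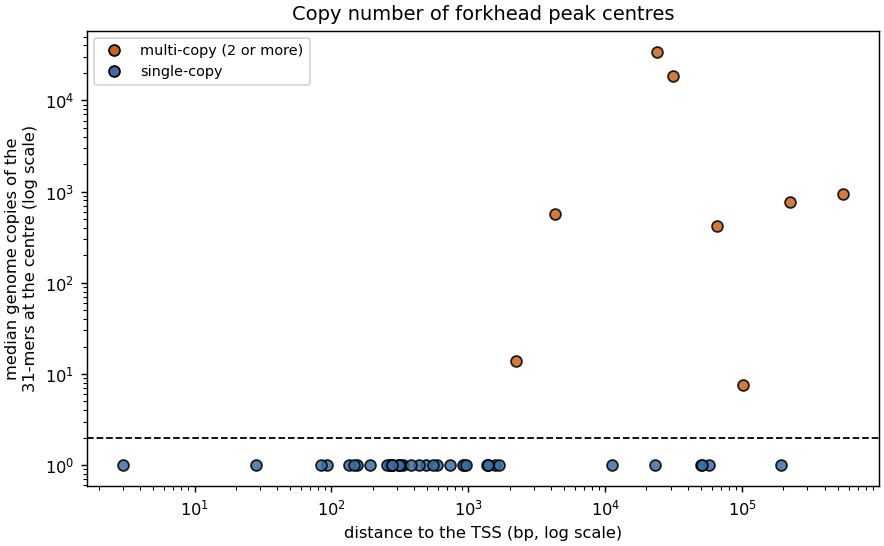
Median number of genome copies of the 31-base words in the central 200 bp of each of the 46 forkhead peaks against its distance to the TSS, both on log scales, with the dashed line at 2 copies. The 8 multi-copy peaks (orange) all lie beyond 2 kb from the TSS, and 6 of the 12 peaks beyond 10 kb are single-copy (blue).

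To look for strings that forkhead or homeodomain factors read, the central 200 bp were searched on both strands. TGTTTAC, a core of the forkhead motif, was present in 1 of 46 centres (2.17%, against 0.412% of all peaks), in 5 and 0 of the windows 2 kb to either side (10.9% and 0%, against 2.65% and 2.73%), and in 5 whole peaks (10.9%, against 4.27%). TAAT, the core read by homeodomain factors such as Isl1, was present in 4 centres (8.7%, at Foxc1, Foxl1, Foxp2 and Foxp4, against 19.4% of all peaks), in 23 and 24 of the flanking windows (50% and 52.2%, against 72% and 72.3%) and in 31 whole peaks (67.4%, against 73.8%). The direction depended on distance. Within 1 kb of the TSS, TAAT was in 7.41% of forkhead centres against 5.87% of all, and in 70.4% of whole peaks against 59.9%. At 1 to 10 kb the centres had 0% against 15.1%, and beyond 10 kb 16.7% against 30.5%. The longer forms CTAATTG and CTAATGG were found in 1 centre, and AGATAA, a string of GATA factors, in 0 of 46 centres (1.7% of all) and in 4 and 6 of the flanking windows (8.7% and 13%, against 10.5% and 11%). TAAT was less frequent at the centres than in the flanks, which hold less G and C, both in the forkhead peaks and over all peaks, and the part of base composition in this was not tested. A match is a description of letters and not of a site, and TAAT is contained in the longer forms. The only centre with TGTTTAC, in the distal Foxa1 peak on the + strand at chr12:58635741-58635940, is printed with the match, which reads on the other strand, in capitals.
Foxa1 distal: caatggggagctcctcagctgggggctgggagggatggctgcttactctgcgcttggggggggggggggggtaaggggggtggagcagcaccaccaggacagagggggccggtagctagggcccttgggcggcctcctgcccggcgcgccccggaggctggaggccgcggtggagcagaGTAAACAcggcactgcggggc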

How the data were processed

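ChIP-Seq was done on ESC-derived CPCs at day 5, with 2 Isl1 ChIP samples and 1 input. According to the methods, the authors mapped reads to mm9 with bowtie2 at default settings, removed duplicates with Picard 1.136, called peaks with MACS14 (p 1e-08, no model, shift size 80), removed ENCODE blacklisted regions, kept areas common to the replicates with bedtools 2.15 and assigned each peak to the closest TSS with HOMER. Whether the input entered the calling is not given in the sources used here. Default bowtie2 places a read with several equal matches at 1 of them. The deposited list holds start, end and signed distance in bp, which are positions and not counts, and no score, so the depth behind a peak is unknown. Starts may be off by 1 bp.

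Identical repeated lines were removed, leaving 14082 of 14165. Symbols were matched to RefSeq (9305 of 9313), and the background was the 21031 protein-coding genes with a curated transcript. Gene models came from GENCODE M1 on NCBIM37 (mm9), in which Foxl1 has no coding model, and 1 read-through model was left out of the positions. Copy numbers of words of 31 and 75 bases were counted over both strands and were tested on simulated sequence. All members were named, neighbours within 50 kb of a member TSS were named, and of the lists only partners were named. The RefSeq promoter table was used to decide for which members sequence is printed, and windows that overlap a UTR were left out. Some sequences and partner genes are not reported here. Members and lists were chosen with earlier results of these data known, and the string, gap, coding-sequence and CG-class counts were added after the peaks had been seen. No test was run. Python 3.11.15, numpy 2.4.6, scipy 1.17.1 and pysam 0.24.0 were used.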

Additional observations from a re-analysis of the deposited data

How the results depend on the processing

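Of 43 alternative settings over 8 results, 33 stayed within 1.5 times the count or inside the interval of the value reported. The number of forkhead genes with a peak ran from 24 (peaks of at least 1000 bp) to 31 (any peak in the gene body or 10 kb either side), and was 11 when at least 2 peaks were asked for. The 46 forkhead peaks became 28 with a minimum width of 1000 bp. The multi-copy share was 8.7% with words of 75 bases and 8.7% over the whole peak. Mean G and C over the whole peak was 64.9%, a window that holds the edges as well. TGTTTAC was in 0% of windows at higher coordinates. TAAT was in 67.4% of whole peaks, which are longer, in 50% and 52.2% of the flanking windows, and CTAATTG or CTAATGG in 2.17% of centres. Where no difference in length is named, the cause was not tested.

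No paired analysis was possible because the list combines both replicates and no test was run, and for the same reason neither replicate was left out. The list keeps areas called in both replicates, so a gene without a peak is not shown to be unbound.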

Other observations

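The starts of other genes lay inside 8 of the 46 forkhead peaks, in 7 of them on the opposite strand. Besides Fendrr, Foxd2os, Foxl2os and Rhno1, these were A530084C06Rik 1163 bp from the Foxq1 TSS, RP24-337A16.1 1098 bp from that of Foxo1 and Gm12446 178 and 1906 bp from that of Foxe1. The miRNA model BX005053.1 lay on the strand of Foxd3, 1443 bp from its TSS. Such starts were counted in the forkhead peaks alone, with no share over all distinct peaks to set beside them. The list holds identical repeats of 2 forkhead peaks, the 2240 bp peak of Foxc2 and the 1340 bp peak of Foxp4. By the nearest coding TSS of GENCODE, 5 of the 46 peaks would carry the name of another gene. Among these are both Foxl1 peaks, since Foxl1 has no coding model in that annotation and could not be named.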
